A study of Mus musculus with 12 samples.

Results

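In Dgcr8 knockout (KO) mouse embryonic stem cells (ESCs), a small set of protein-coding genes that wild-type (WT) ESCs express had almost no steady-state RNA. The set held 54 of the 10490 protein-coding genes that reached a mean of at least 4 CPM (the reads of a gene scaled to a common library size) in WT total RNA, or 0.515%, and of the 51467 genes in the table. Each had a mean of at least 4 CPM in the WT total libraries and under 1 CPM in the Dgcr8 KO total libraries. Lin28a met both limits and was left out. Total RNA therefore chose these genes, and their total RNA values are given as a description without a test. RNA labelled during a short pulse was not used for the choice, although it came from the same RNA samples and was fitted together with the total libraries.

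The 12 libraries were 3 of WT total RNA, 3 of Dgcr8 KO total RNA, 3 of WT 4sU RNA and 3 of Dgcr8 KO 4sU RNA. All cells were ESCs in medium with serum, LIF and 2i, a pair of kinase inhibitors (PD0325901 and CHIR99021), and all were given 4-thiouridine (4sU), a base that newly made RNA takes up, for 30 min at 500 uM. The RNA of each sample was then divided: rRNA-depleted RNA gave the steady-state (total) libraries, and biotinylated 4sU RNA captured on streptavidin gave the nascent libraries. According to the methods of the study, the WT cells were the V6.5 line and the Dgcr8 KO cells an ESC line made earlier. With a single line for each genotype, loss of Dgcr8 and other differences between the lines cannot be told apart. Nothing in the labels says that the numbered replicates came from separate cultures, so p-values measure only the spread between these samples.

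DGCR8 is the RNA-binding partner of the nuclease DROSHA. Together they cut primary transcripts into microRNA precursors, and ESCs without it lack nearly all microRNAs. MicroRNAs lower the level and translation of the mRNAs they pair with, so direct targets are usually higher, not lower, when microRNAs are lost. The most abundant microRNAs of ESCs belong to a family with a shared seed, the stretch near the 5′ end that pairs with targets. Genes with little RNA in the absence of DGCR8 are the opposite case, and RNA labelled in a short pulse reports mostly recent synthesis. They are called depleted genes here for their total RNA, which was low but not absent in KO.

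Dgcr8 itself stood at 94.3, 102 and 85.6 CPM in the WT total libraries and at 32.3, 32.7 and 30.9 CPM in Dgcr8 KO, so RNA from the locus remained (log2 change -1.60; limma adjusted p = 6.68e-17). The counts cover all exons of the gene and do not show which part was deleted. In nascent RNA it was at 113, 123 and 112 CPM in WT and 74.6, 81.0 and 93.7 CPM in KO. Library totals were 6873708 to 9295245 counts for total RNA and 4593914 to 6005526 for 4sU RNA, and Spearman's rho between replicates over the tested genes was at least 0.988. Summed over 12 pluripotency genes, total RNA was 6029 to 6177 CPM in WT and 6266 to 6317 CPM in KO; 1 of the 12 passed the test in total RNA (Klf2, higher). Markers of other cell types were summed in the same way. The 14 fibroblast markers, typical of feeder cells, summed to 15.9 to 18.6 CPM in WT total libraries and 8.07 to 9.33 CPM in KO. Of the 14, Col3a1, Postn, Dcn, S100a4 and Fap had no count in any total library, Col1a1 was at 0.929 CPM in WT and 0.341 CPM in KO, and most of the sum came from Pdgfrb and Fbln2, of which Fbln2 was called lower in total RNA. The sums over the total libraries of WT and KO were 8.44 to 10.8 and 10.1 to 12.8 CPM for 8 primitive endoderm markers, 77.7 to 87.4 and 103 to 104 CPM for 8 trophectoderm markers, 113 to 123 and 82.1 to 88.4 CPM for 8 neural progenitor markers, and 125 to 134 and 88.0 to 92.3 CPM for 8 primed epiblast markers. In these 4 lists, 0 of 3 tested neural genes passed the test in total RNA, 1 of 2 endoderm and 1 of 5 trophectoderm genes were called higher, and of 4 epiblast genes 1 was called lower and 1 higher. Over all genes tested, 7.83% were called lower and 9.33% higher in total RNA. The part of the differences in marker genes in the results for the depleted genes was not tested. In bulk RNA, fewer cells that express a gene and less RNA in each cell cannot be told apart.

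The depleted genes were modestly expressed in WT. Their mean in WT total RNA ran from 4.02 CPM (Cfap74) to 25.7 CPM (Pramel7) with a median of 5.77 CPM, against a median of 40.4 CPM over all protein-coding genes that reached 4 CPM. These means rested on 19 to 233 reads per gene and library. In Dgcr8 KO total RNA the genes had 0 to 13 reads per library, a range of means from 0.0362 CPM (Xlr3a) to 0.966 CPM (Dpep3). None was at 0 in all 3 KO total libraries, and 5 were at 0 in at least 1. Per kilobase of exon, the WT level was highest for Rhox5 at 18.2 CPM per kb, followed by Dppa3 and Crabp1 at 14.4 CPM per kb each, and lowest for Hmcn1 at 0.238 CPM per kb. The plot of CPM by library shows WT and KO total libraries as separate bands, which the rule imposes, and the same genes in nascent RNA, where the bands come closer for some genes.

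**Figure D1:**
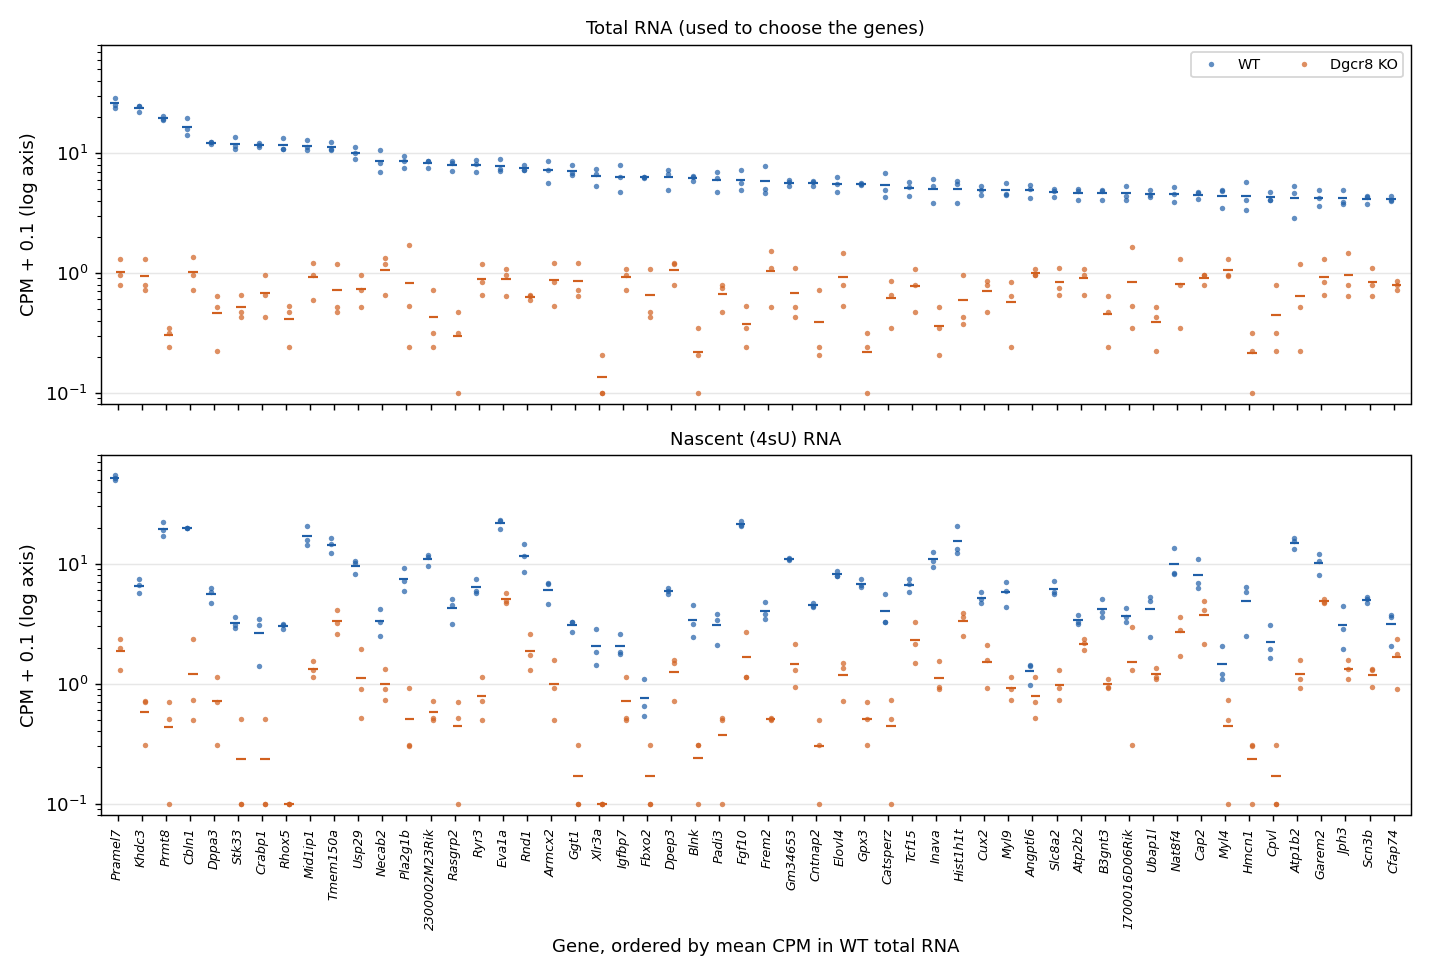
CPM + 0.1 (log axis) of the 54 genes in each library, total RNA above and nascent (4sU) RNA below, WT in blue and Dgcr8 KO in orange, with 1 point per library, a bar at the mean of 3 libraries, and genes ordered by WT total RNA. In nascent RNA all KO points lie under all WT points for 52 genes; Angptl6 and Cfap74 overlap.

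Genes of the early embryo and germ cells included Pramel7 and Khdc3, which had the highest WT total CPM of the set. Of 8 such genes, all 8 were called lower in KO nascent RNA, and the median KO nascent level was 8.09% of WT. For comparison, 52 of all 54 depleted genes and 5.27% of the 14033 genes tested were called lower in nascent RNA. The counts for other roles below are to be read against these shares, and none sets a role apart. Pramel7, which belongs to a leucine-rich repeat family of the early embryo and germ line and is active in the inner cell mass, was at 28.7, 23.5 and 25.1 CPM in WT total RNA and at 1.19, 0.869 and 0.696 CPM in KO. Its nascent RNA was at 51.8, 49.6 and 54.9 CPM in WT and 1.88, 1.2 and 2.26 CPM in KO, the highest WT nascent level of the set, with a change of -4.86 in log2 units (SE 0.30; limma adjusted p = 9.44e-15). Every WT value was far above every KO value.

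Khdc3 encodes a member of the subcortical maternal complex of the oocyte and early embryo. It was at 24.7, 21.7 and 24.7 CPM in WT total RNA and 1.19, 0.621 and 0.696 CPM in KO, while its nascent RNA fell from 7.33, 6.53 and 5.56 CPM to 0.209, 0.60 and 0.617 CPM (log2 change -3.62, SE 0.49; limma adjusted p = 2.08e-07). Dppa3 (Stella), a maternal factor that protects the zygotic genome from loss of DNA methylation, was at 12.2, 11.7 and 12.2 CPM in WT total RNA and 0.543, 0.124 and 0.418 CPM in KO. Its nascent RNA was at 5.66, 4.57 and 6.12 CPM in WT and 1.05, 0.60 and 0.206 CPM in KO (log2 change -3.18, SE 0.49; limma adjusted p = 1.58e-06). For both genes the lowest WT library exceeded the highest KO library several times over.

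The X-linked genes Rhox5 and Xlr3a had no nascent read in any KO library. Rhox5, a homeobox gene of the reproductive tract and placenta, was at 3.00, 3.05 and 2.78 CPM in WT nascent RNA, at least 14.3-fold higher against a floor of 3 counts pooled over the 3 KO libraries, and the exact 95% counting interval of the ratio began at 11.2. Its total RNA was at 10.6, 10.7 and 13.2 CPM in WT and 0.434, 0.373 and 0.139 CPM in KO. Xlr3a, of a lymphoid and germ cell gene family clustered on the X chromosome, was at 1.33, 1.74 and 2.78 CPM in WT nascent RNA, at least 9.46-fold higher against the same floor, with an interval that began at 7.24. A single read of Xlr3a was counted over the 3 KO total libraries. The 10 listed genes of the Xlr family are close copies, and unique mapping can split or drop their reads; summed over the family, total RNA was 9.68 to 13.4 CPM in WT and 0.326 to 0.418 CPM in KO, and Xlr3a alone passed the low-count filter.

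Hist1h1t, the testis-specific linker histone, was at 12.2, 13.3 and 20.6 CPM in WT nascent RNA and 3.77, 2.40 and 3.49 CPM in KO (log2 change -2.23, SE 0.30; limma adjusted p = 1.49e-07), so it kept more nascent RNA than the genes above. Catsperz, a subunit of the sperm calcium channel, was at 3.16, 5.44 and 3.15 CPM in WT nascent RNA and 0.628, 0 and 0.411 CPM in KO. Dpep3, a membrane dipeptidase of the testis, was at 5.49, 5.88 and 6.12 CPM in WT nascent RNA and 1.47, 1.40 and 0.617 CPM in KO (log2 change -2.34, SE 0.39; limma adjusted p = 7.33e-06). Of 13 other germline genes tested, none of them among the 54, 5 were called lower and 1 higher in total RNA, with a median log2 change of -0.58, and 5 lower and 2 higher in nascent RNA. Of the genes of the 2-cell embryo, 13 were tested, and all 13 were called higher in both total and nascent RNA. Over all genes tested, 7.83% were called lower and 9.33% higher in total RNA, and 5.27% lower and 9.50% higher in nascent RNA.

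Genes best known from neurons numbered 4, and all 4 were called lower in nascent RNA. Prmt8, a membrane-bound arginine methyltransferase that is largely restricted to brain in adults, was at 18.6, 20.2 and 19.0 CPM in WT total RNA and 0.217, 0.248 and 0.139 CPM in KO. Its nascent RNA was at 19.1, 22.2 and 17.1 CPM in WT and 0, 0.60 and 0.411 CPM in KO, a change of -5.88 in log2 units (SE 0.54; limma adjusted p = 7.15e-11). Among the 8 other protein arginine methyltransferases tested, none was called lower in either kind of RNA and Prmt2 was called higher in both. Cbln1, a secreted organizer of synapses, was at 15.7, 14.1 and 19.6 CPM in WT total RNA and 0.868, 0.621 and 1.25 CPM in KO. Its nascent RNA went from 19.8, 19.6 and 19.8 CPM to 0.628, 0.400 and 2.26 CPM (log2 change -4.40, SE 0.44; limma adjusted p = 5.08e-10). Cntnap2, a neurexin-like adhesion protein, had 3 nascent reads over the KO libraries, a WT to KO ratio of 21.4 with a 95% counting interval from 7.01 to 106. Cux2, a homeobox factor of upper-layer neurons, kept 28.0% of its WT nascent level.

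Channels, pumps and calcium-handling proteins made up 7 genes, of which 6 were called lower in nascent RNA. Ryr3, a calcium release channel of the endoplasmic reticulum, was at 5.83, 7.40 and 5.56 CPM in WT nascent RNA and 1.05, 0.400 and 0.617 CPM in KO (log2 change -3.10, SE 0.44; limma adjusted p = 5.44e-07). Atp1b2, a beta subunit of the sodium-potassium pump, was at 15.3, 13.1 and 16.1 CPM in WT nascent RNA and 1.47, 1.00 and 0.822 CPM in KO (log2 change -3.71, SE 0.42; limma adjusted p = 5.90e-09). The calcium binder Necab2 was at 3.16, 2.39 and 4.08 CPM in WT nascent RNA and 0.628, 0.800 and 1.23 CPM in KO (log2 change -1.79, SE 0.47; limma adjusted p = 0.00159). The sodium channel subunit Scn3b changed by -2.12 (SE 0.37; limma adjusted p = 1.43e-05), and Jph3, which ties the plasma membrane to calcium stores, by -1.12 (SE 0.43; limma adjusted p = 0.0276). Slc8a2, a sodium-calcium exchanger of neurons, changed by -2.70 (SE 0.40; limma adjusted p = 8.52e-07). The call of Jph3 was lost without WT replicate 3, KO replicate 2 or KO replicate 3, with log2 changes of -1.11, -0.98 and -1.10 and limma adjusted p of 0.0506, 0.0878 and 0.0695.

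Atp2b2 was the exception in this group. This plasma membrane calcium pump was at 4.95, 3.93 and 4.73 CPM in WT total RNA and 0.977, 0.869 and 0.557 CPM in KO. In nascent RNA it was at 3.66, 3.05 and 3.15 CPM in WT and 2.09, 1.80 and 2.26 CPM in KO. The nascent groups did not overlap, but the change of -0.69 in log2 units (SE 0.33; limma adjusted p = 0.0769) did not pass the test, and KO kept 62.4% of the WT nascent level, the highest share of the 54 genes.

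Secreted and extracellular proteins counted 7 genes, 6 of them called lower in nascent RNA. Fgf10, a growth factor that directs the budding of limbs and lungs, was at 22.6, 20.9 and 20.6 CPM in WT nascent RNA and 1.05, 2.60 and 1.03 CPM in KO (log2 change -3.84, SE 0.34; limma adjusted p = 4.04e-11). Gpx3, the plasma glutathione peroxidase, was at 7.33, 6.53 and 6.31 CPM in WT nascent RNA and 0.209, 0.60 and 0.411 CPM in KO. Hmcn1, a very large matrix protein, had 2 nascent reads over the KO libraries, a WT to KO ratio of 34.8 with a 95% counting interval from 9.3 to 292. Pla2g1b, a secreted phospholipase best known from the pancreas, was at 5.83, 9.14 and 7.05 CPM in WT nascent RNA and 0.209, 0.200 and 0.822 CPM in KO. Frem2, a matrix protein that holds the embryonic epidermis to the tissue below, changed by -2.99 (SE 0.56; limma adjusted p = 3.31e-05). Igfbp7, which binds insulin-like growth factors, kept 31.3% of its WT nascent level and changed by -1.65 (SE 0.53; limma adjusted p = 0.00943). Angptl6, an angiopoietin-like factor, was the gene of this group that was not called: its nascent RNA was at 1.33, 0.871 and 1.30 CPM in WT and 0.419, 0.60 and 1.03 CPM in KO, with overlapping groups and a change of -0.78 in log2 units (SE 0.51; limma adjusted p = 0.195). Its 10 nascent reads over the KO libraries gave a WT to KO ratio of 1.74 with a 95% counting interval from 0.77 to 4.19.

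All 8 enzymes and carriers of metabolism were called lower in nascent RNA. Crabp1, the cytosolic carrier of retinoic acid, was at 12.1, 11 and 11.6 CPM in WT total RNA and 0.326, 0.869 and 0.557 CPM in KO. Its nascent RNA was at 3.33, 1.31 and 2.97 CPM in WT, with 2 reads over the 3 KO libraries, a WT to KO ratio of 19.2 with a 95% counting interval from 5.0 to 164. Mid1ip1, an activator of fatty acid synthesis, was at 15.7, 20.7 and 14.3 CPM in WT nascent RNA and 1.05, 1.2 and 1.44 CPM in KO (log2 change -3.67, SE 0.37; limma adjusted p = 4.87e-10). Ggt1, which cleaves extracellular glutathione, and Cpvl, a carboxypeptidase-like protein, had 1 nascent read each over the KO libraries. Their WT to KO ratios were 43.9 and 31.1, with 95% counting intervals from 7.52 to 1771 and from 5.22 to 1265. Elovl4, which makes very long fatty acids, was at 8.66, 7.84 and 7.79 CPM in WT nascent RNA and 1.26, 1.40 and 0.617 CPM in KO. Padi3, which converts arginine to citrulline in proteins, changed by -3.32 (SE 0.61; limma adjusted p = 2.45e-05), and B3gnt3, a glycosyltransferase, by -2.11 (SE 0.41; limma adjusted p = 6.70e-05). Nat8f4, of an acetyltransferase-like family, kept the most of the group: it was at 8.16, 8.27 and 13.4 CPM in WT nascent RNA and 2.72, 1.60 and 3.49 CPM in KO (log2 change -1.95, SE 0.33; limma adjusted p = 8.42e-06).

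Among 8 signalling, transcription and ubiquitin genes, all 8 were called lower in nascent RNA. Stk33, a serine/threonine kinase, was at 10.6, 11.4 and 13.4 CPM in WT total RNA and 0.326, 0.373 and 0.557 CPM in KO. Its nascent RNA was at 3.50, 2.83 and 2.97 CPM in WT, with 2 reads over the KO libraries, a WT to KO ratio of 22.9 with a 95% counting interval from 6.01 to 194. Usp29, a deubiquitinase gene expressed from the paternal allele, was at 9.99, 8.05 and 10.4 CPM in WT nascent RNA and 0.419, 0.800 and 1.85 CPM in KO (log2 change -3.32, SE 0.41; limma adjusted p = 4.46e-08). Blnk, the adaptor that links the B-cell receptor kinase SYK to its effectors, was at 2.33, 3.05 and 4.45 CPM in WT nascent RNA and 0.209, 0 and 0.206 CPM in KO, a ratio of 23.8 with a 95% counting interval from 6.27 to 202. Of 5 other genes of B-cell receptor signalling that were tested, 1 was called lower (Cd79b) and 1 higher (Pik3cd), in total and nascent RNA alike. Fbxo2, a ubiquitin ligase subunit that binds glycoproteins, was at 0.999, 0.435 and 0.556 CPM in WT nascent RNA and 0, 0 and 0.206 CPM in KO, a single read and a ratio of 10.1 with a 95% counting interval from 1.46 to 433. Rasgrp2, which activates small GTPases in response to calcium, was at 5.0, 3.05 and 4.45 CPM in WT nascent RNA and 0.419, 0.60 and 0 CPM in KO. Inava, an adaptor of innate immune receptor signalling and cell junctions, changed by -3.33 (SE 0.40; limma adjusted p = 1.77e-08). Tcf15, a helix-loop-helix factor of somites, was at 6.66, 7.40 and 5.75 CPM in WT nascent RNA and 3.14, 1.40 and 2.06 CPM in KO, and Garem2, an adaptor of receptor signalling, is described with the genes that stayed partly active.

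The remaining genes were 5 of the cytoskeleton and cilia (Myl9, Myl4, Cap2, Rnd1 and Cfap74) and 7 with other or little described roles, and all 12 were called lower in nascent RNA. The muscle light chain gene Myl4 was at 0.999, 1.96 and 1.11 CPM in WT nascent RNA and 0.628, 0.400 and 0 CPM in KO (log2 change -2.05, SE 0.64; limma adjusted p = 0.00718), and without KO replicate 3 its log2 change was -1.16 with a limma adjusted p of 0.115. Myl9, the light chain of smooth muscle and non-muscle myosin, was at 6.99, 5.88 and 4.27 CPM in WT nascent RNA and 0.628, 0.800 and 1.03 CPM in KO. Rnd1, a small GTPase that loosens the actin cytoskeleton, changed by -2.70 (SE 0.34; limma adjusted p = 4.09e-08). Tmem150a, a membrane protein of phosphoinositide control at the cell surface, was at 12.2, 14.6 and 16.3 CPM in WT nascent RNA and 2.51, 4.00 and 3.08 CPM in KO (log2 change -2.16, SE 0.26; limma adjusted p = 2.78e-08). Among the other genes, 2300002M23Rik changed by -4.27 (SE 0.47; limma adjusted p = 3.18e-09), Gm34653 by -3.01 (SE 0.35; limma adjusted p = 1.16e-08), Armcx2 by -2.74 (SE 0.47; limma adjusted p = 8.82e-06) and Ubap1l by -1.72 (SE 0.42; limma adjusted p = 9.06e-04). The gene 1700016D06Rik differed widely between KO libraries, with nascent RNA at 0.209, 1.2 and 2.88 CPM in KO against 4.16, 3.48 and 3.15 CPM in WT, and it was not called without KO replicate 1.

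Over the whole set, nascent RNA was lower in Dgcr8 KO for nearly every gene. All 54 genes passed the filter of 3 CPM in 3 libraries, which WT libraries alone could meet, and 52 were called lower in KO, a call that asked for a limma adjusted p under 0.05 together with a change of more than 1 on the log2 scale. None was called higher. Of all 14033 genes tested, 5.27% were called lower in nascent RNA. The limma log2 changes of the 54 ran from -5.88 to -0.69 with a median of -3.00, against a median of -0.02 over all tested genes. The KO nascent libraries all lay below the WT nascent libraries for 52 of the 54 genes, and for 27.4% of all tested genes. The summed nascent signal of the 54 genes was 420 to 444 CPM in the WT libraries and 57.0 to 65.1 CPM in the KO libraries.

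**Figure D2:**
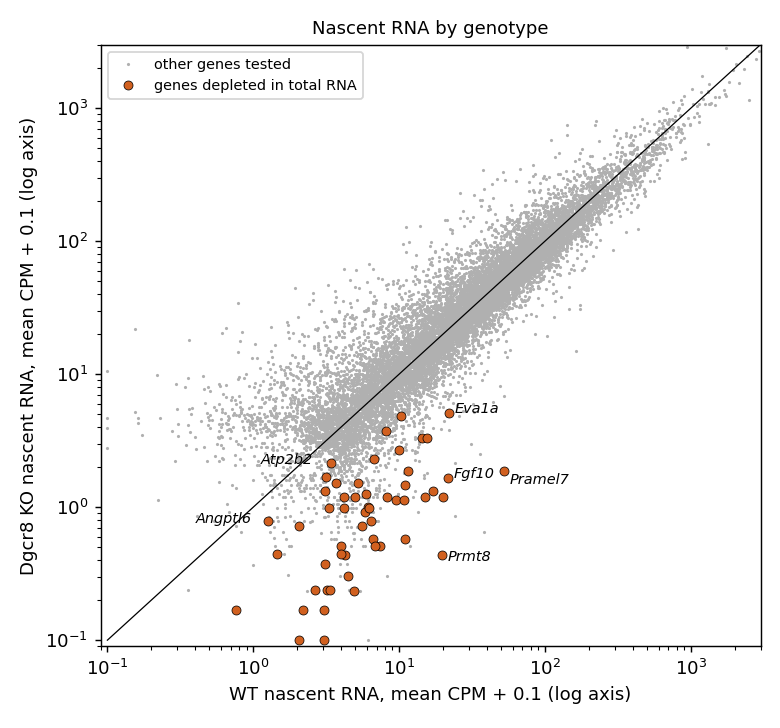
Mean CPM + 0.1 in nascent RNA (3 libraries each, both axes log), WT on the x axis and Dgcr8 KO on the y axis, for the 54 genes (orange) and the other tested genes (grey), with a line at equal levels. The 54 genes lie below the line, Pramel7 and Prmt8 far from it and Atp2b2 and Angptl6 near it.

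Some nascent RNA remained for many of the genes. Mean KO nascent RNA was under 1 CPM for 29 genes and at least 1 CPM for 25, of which 8 reached 2 CPM. The gene with the most KO nascent RNA was Eva1a, a membrane protein linked to autophagy, at 23.1, 19.4 and 22.8 CPM in WT and 4.82, 4.6 and 5.55 CPM in KO (log2 change -2.14, SE 0.20; limma adjusted p = 1.43e-10). Garem2 was at 7.99, 12 and 10.4 CPM in WT nascent RNA and 4.61, 5.0 and 4.73 CPM in KO (log2 change -1.05, SE 0.23; limma adjusted p = 2.77e-04), although its KO total RNA was 1.19, 0.745 and 0.557 CPM. Cap2, an actin regulator, was at 6.16, 10.9 and 6.86 CPM in WT nascent RNA and 3.98, 4.80 and 2.06 CPM in KO (log2 change -1.15, SE 0.29; limma adjusted p = 0.00114). These changes were close to the fold limit: without WT replicate 2, both Garem2 and Cap2 changed by -0.94, and without KO replicate 3 Cap2 changed by -0.76. Cfap74, a ciliary protein, was at 3.66, 1.96 and 3.52 CPM in WT nascent RNA and 1.68, 0.800 and 2.26 CPM in KO; its groups overlapped, and its log2 change of -1.03 (SE 0.39; limma adjusted p = 0.0270) was -0.87 without WT replicate 1, -0.92 without WT replicate 3 and -0.62 without KO replicate 2.

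Set against WT, the median gene kept 11.2% of its nascent level and 9.83% of its total level in KO. The share of total RNA left ran from 0.572% to 22.5%, a range that the limits of the rule bound from above. The share of nascent RNA left ran from 0% to 62.4% and was at least 25% for 14 genes. It exceeded the share of total RNA left in 40 of the 54 genes, but total RNA had been chosen for being low, so this count has no test. The plot of the shares left shows Atp2b2, Angptl6, Cfap74, Garem2, Cap2, Jph3 and 1700016D06Rik well above the line of equal shares.

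**Figure D3:**
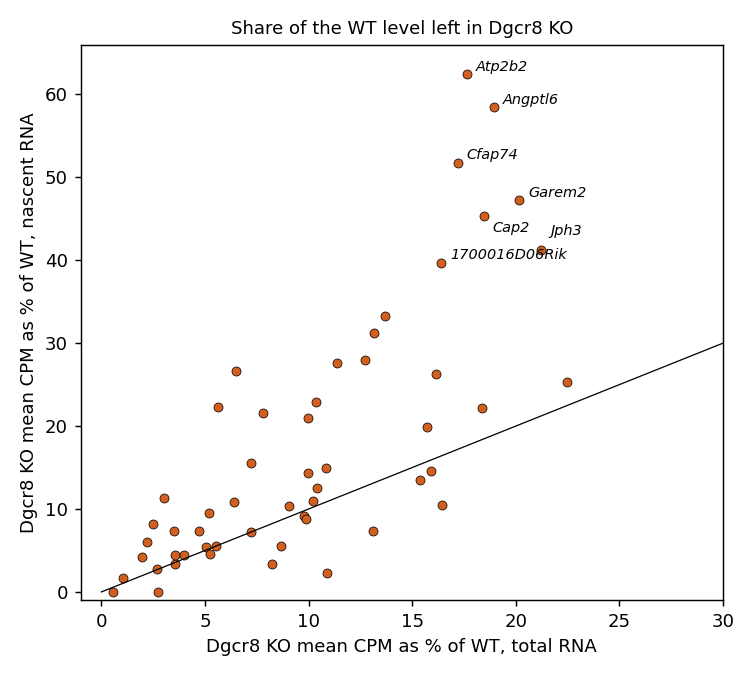
Mean Dgcr8 KO CPM as a percentage of mean WT CPM for the 54 genes, total RNA on the x axis and nascent RNA on the y axis, 1 point per gene, with a line at equal shares. Points spread from 0% to 62.4% in nascent RNA, and 40 lie above the line.

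The ratio of total to nascent CPM in WT cells is a relative measure of RNA stability, set here between libraries that were each scaled to their own size. Its median was 1.09, against 1.2 over the protein-coding genes that reached 4 CPM. Of the 54 genes, 25 lay within the range from the 25th to the 75th percentile of those genes (0.711 to 1.85), 16 above it and 13 below. The highest ratios were those of Fbxo2 (9.27; 6.26 to 14.2 over the 3 replicates), Crabp1 (4.57; 3.63 to 8.43), Angptl6 (4.09; 3.06 to 6.07) and Rhox5 (3.91; 3.50 to 4.76). The lowest were those of Fgf10 (0.272; 0.231 to 0.315), Atp1b2 (0.279; 0.180 to 0.344), Hist1h1t (0.321; 0.277 to 0.443) and Eva1a (0.353; 0.316 to 0.383). The ratios of Fbxo2 and Angptl6 rested on few WT nascent reads (6, 2 and 3 for Fbxo2, and 8, 4 and 7 for Angptl6). By definition, 25% of the comparison genes lie above that range and 25% below it. The counts of 16 and 13 among the 54 were near that share and do not set the depleted genes apart.

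At the limits used, the depleted genes were scattered over the genome. They lay on 16 chromosomes, with 8 on chromosome 6, 6 each on chromosomes 8 and 9, 5 on chromosome 2 and 4 each on chromosomes 5 and X. Chromosome 6 held 8 of 478 genes that reached 4 CPM (1.67%) and chromosome X 4 of 322 (1.24%), against 0.515% over all such genes. The shares of chromosomes 8 and 9 were 1.03% and 1.00%, and chromosomes 12, 14, 16 and 18 held none. These shares were not tested. No pair of them lay within 500 kb of each other. That count depends on the limits. With a WT minimum of 2 CPM or a KO limit of 2 CPM, some genes had another of their set within 500 kb (counts in the closing section). A gene nearby that fell can also miss the limits, as Pramel6 did 15.0 kb from Pramel7. Clusters of genes with smaller changes or lower WT levels are therefore not excluded. The relatives of Xlr3a and Rhox5 missed the WT limit and were not tested. In total RNA, Xlr4a went from 1.82 CPM in WT to 0 CPM in KO, and Rhox1 from 0.937 to 0.0414 CPM. Rhox9 went the other way, from 0.548 to 0.878 CPM. The closest depleted genes were Rasgrp2 (chr19:6399340-6415216 in mm10) and Catsperz (chr19:6922426-6925380), 507 kb apart, and the median distance to the nearest depleted gene on the same chromosome was 12071 kb. Of the Y-linked genes, 4 were tested and none was called lower or higher; their listed genes summed to 143 to 158 CPM in WT total RNA and 215 to 232 CPM in KO.

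Most expressed genes beside the depleted ones were not called. The nearest other protein-coding gene that reached 4 CPM in WT was taken on each side of each depleted gene, which gave 108 genes at a median distance of 35.5 kb. In total RNA 12 of them were called lower (11.1%, against 7.83% of all genes tested) and 7 higher (6.48%, against 9.33%). In nascent RNA 5 were called lower (4.63%, against 5.27%) and 6 higher (5.56%, against 9.50% of all genes tested). The sets compared are unlike. Neighbours had to be protein-coding and reach 4 CPM in WT, whereas the genes tested could pass the low-count filter through KO libraries alone. Dppa3 lies between the pluripotency genes Gdf3 and Nanog, 16.3 and 77.2 kb away, which changed by 0.33 (SE 0.05) and -0.18 (SE 0.05) on the log2 scale in total RNA. Gpx3 lies 0.408 kb from Tnip1, and Myl4 0.180 kb from Cdc27, and neither neighbour was called. Other close neighbours were called lower in total RNA. Among them, Fbxo44, 0.538 kb from Fbxo2, changed by -1.66 (SE 0.32, limma adjusted p = 3.03e-05). Pheta1, 1.73 kb from Cux2, changed by -1.50 (SE 0.17, limma adjusted p = 5.75e-09). Fbxo44 and Pheta1 were not called in nascent RNA. Both neighbours of Jph3 were called lower in total RNA. Zcchc14, 77.7 kb away, changed by -1.25 (SE 0.08, limma adjusted p = 1.61e-15) and Klhdc4, 5.49 kb away, by -1.07 (SE 0.07, limma adjusted p = 6.58e-15). Their nascent log2 changes of -0.92 and -0.91 were not called. Both neighbours of Scn3b, Vwa5a (1525.9 kb away) and Gramd1b (1.615 kb away), were called higher in total RNA.

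The 5 neighbours called lower in both total and nascent RNA were Pramel6, Lmo1, Pnma5, Peg3 and Fkbp11. Pramel6, 15.0 kb from Pramel7 and of the same family, had the largest fall, changing by -3.33 (SE 0.27; limma adjusted p = 3.08e-12) in total RNA and by -3.18 (SE 0.32; limma adjusted p = 6.59e-10) in nascent RNA on the log2 scale. Its KO total mean of 1.51 CPM kept it outside the rule. Peg3, which shares its promoter region with Usp29 and is likewise expressed from the paternal allele, lies 0.162 kb from it. It was at 132 CPM in WT total RNA and 65.8 CPM in KO, a change of -1.06 in log2 units (SE 0.06; limma adjusted p = 1.26e-15). Some neighbours rose, among them Atxn1, 537 kb from Cap2, which changed by 3.45 in total RNA (SE 0.13; limma adjusted p = 1.89e-20). The plot of neighbours shows most triangles near 0 above the falls of the depleted genes.

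**Figure D4:**
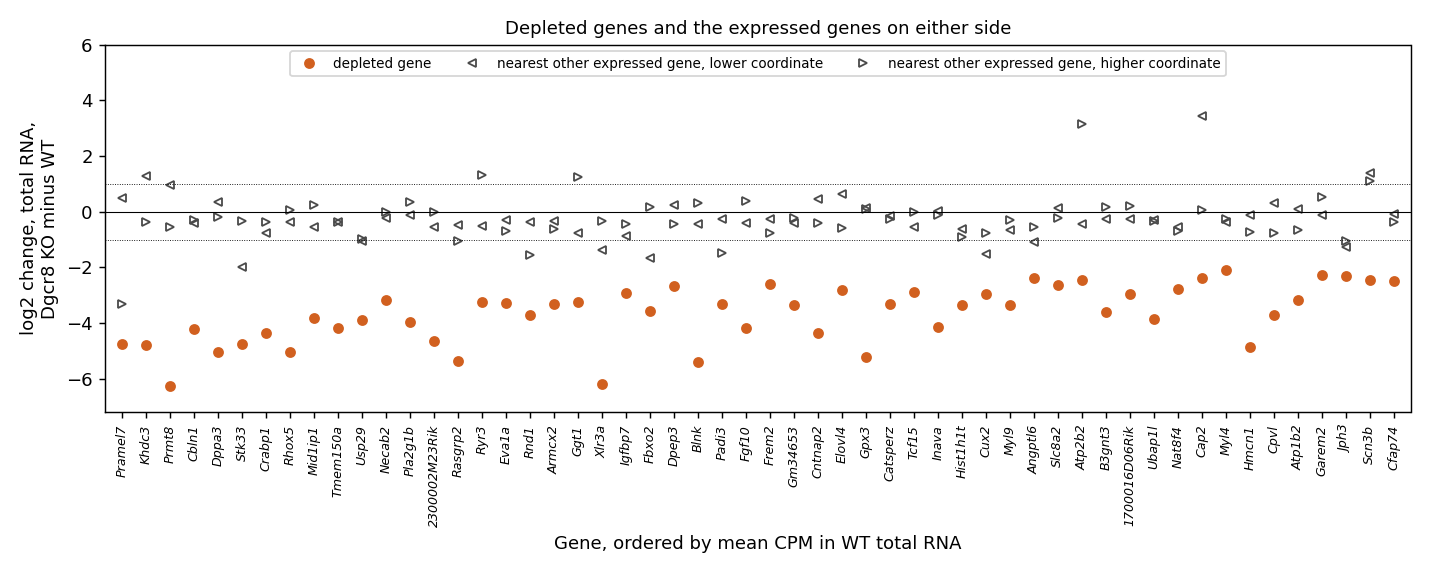
Log2 change in total RNA, Dgcr8 KO minus WT (limma), for each depleted gene (filled circles, chosen on these values) and for the nearest other expressed protein-coding gene at lower and higher coordinates (triangles), with dotted lines at -1 and 1. Most triangles lie between the dotted lines, and the lowest is Pramel6.

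Relatives of the depleted genes moved in both directions. Of 30 gene families with a depleted member, matched by symbol, 25 had another member that was tested, and 61 such members were tested in all. In total RNA 10 were called lower (16.4%, against 7.83% of all genes tested) and 11 higher (18%, against 9.33%), with a median log2 change of -0.27. In nascent RNA 5 were called lower (8.20%, against 5.27%) and 12 higher (19.7%, against 9.50%), with a median of 0.04. Relatives that rose included Crabp2, Slc8a1 and Cntnap1. Crabp2 went from 1.33 ± 0.14 to 6.22 ± 0.65 CPM in total RNA (SD, n = 3; log2 change 2.13, limma adjusted p = 2.29e-07) beside Crabp1. The calcium exchanger Slc8a1 went from 1.34 ± 0.53 to 4.76 ± 0.82 CPM (SD, n = 3; log2 change 1.81, limma adjusted p = 1.01e-05) beside Slc8a2. Cntnap1 went from 0.256 ± 0.17 to 4.30 ± 0.26 CPM (SD, n = 3; log2 change 3.92, limma adjusted p = 3.73e-08) beside Cntnap2. In the B3gnt glycosyltransferases, B3gnt5 fell along with the depleted B3gnt3, by 3.18 on the log2 scale in total RNA, while B3gnt7 changed by 2.88. Elovl2 and Atp2b4 fell beside Elovl4 and Atp2b2, with log2 changes of -1.92 and -1.43.

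Promoters of the depleted genes held fewer CpG dinucleotides at the median than those of other expressed genes, which is given as a description without a test. A RefSeq promoter (GRCm38.p6; 250 bases before to 50 after the start) was matched to 45 of the 54 genes, and 42 lay within 1000 bases of the start in the table. Of these 42, 16 (38.1%) had a ratio of observed to expected CpG of at least 0.6, a usual mark of CpG-rich promoters, against 80.6% of 8145 promoters of the other protein-coding genes that reached 4 CPM. Among those of them under 30 CPM, closer in level to the depleted genes, the share was 73.5%. The median ratio was 0.547 for the depleted genes and 0.801 for the others, at a similar GC content of 60.5% and 61.7%. At most 5 CpGs were found in 8 (19.0%) of the promoters, against 4.4% of the others. The GC box GGGCGG, searched on both strands, was in 57.1% of the promoters and 69.6% of the others.

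The 150 bases before the RefSeq start are shown for 4 of these genes, from the lowest CpG content to a CpG-rich example, with each CG in capitals. Khdc3 and Pramel7 had no CG in this stretch and 0 and 1 in the 300 bases, the stretch of Usp29 lies in the interval it shares with Peg3, and Prmt8 has a CpG-rich promoter with 43 CGs in 300 bases. The start is that of RefSeq; it matches the table's start for Khdc3, Pramel7 and Usp29, whereas the Prmt8 stretch lies inside the gene as the table gives it, downstream of the table's start. The stretches lie at chr9:73102248-73102397 (+ strand, Khdc3), chr2:87492419-87492568 (- strand, Pramel7), chr7:6730433-6730582 (+ strand, Usp29) and chr6:127769160-127769309 (- strand, Prmt8).
Khdc3: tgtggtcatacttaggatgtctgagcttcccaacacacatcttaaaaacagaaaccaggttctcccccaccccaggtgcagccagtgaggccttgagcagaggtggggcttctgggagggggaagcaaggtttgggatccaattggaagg
Pramel7: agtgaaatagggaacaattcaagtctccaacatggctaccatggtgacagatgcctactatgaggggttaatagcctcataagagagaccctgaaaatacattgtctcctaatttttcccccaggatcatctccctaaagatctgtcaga
Usp29: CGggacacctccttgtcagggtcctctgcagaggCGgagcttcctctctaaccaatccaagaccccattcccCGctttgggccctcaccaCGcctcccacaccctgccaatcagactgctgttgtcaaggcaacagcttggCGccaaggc
Prmt8: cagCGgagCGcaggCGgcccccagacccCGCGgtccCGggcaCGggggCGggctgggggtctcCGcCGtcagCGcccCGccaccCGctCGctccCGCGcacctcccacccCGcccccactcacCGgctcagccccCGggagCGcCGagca

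The plot of CpG ratios shows the depleted genes spread over the whole range, with the larger part to the left of 0.6.

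**Figure D5:**
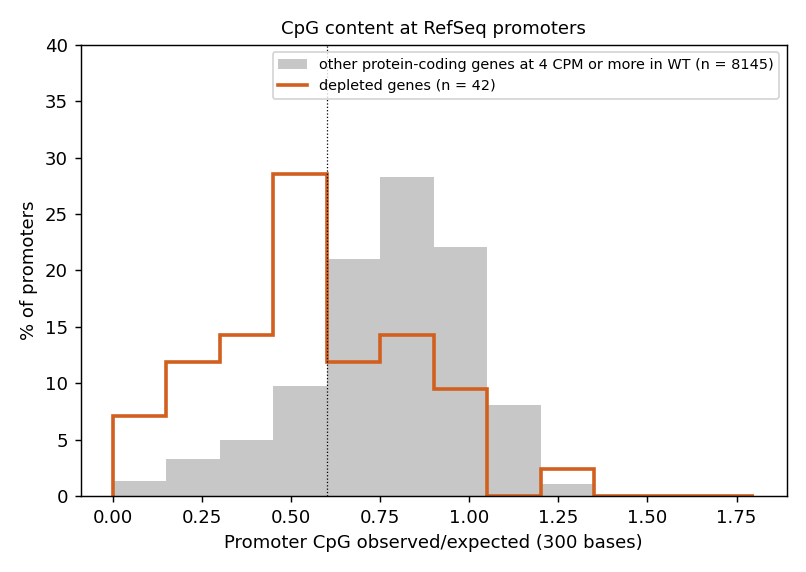
Distribution of the observed to expected CpG ratio over 300 promoter bases for 42 depleted genes (orange line) and 8145 other protein-coding genes that reached 4 CPM in WT total RNA (grey), as % of promoters, with a dotted line at 0.6. Of the depleted genes 38.1% lie at or right of the line, against 80.6% of the others.

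Pairing sites for the main ESC microRNAs were searched in the 3′ UTRs of the 54 genes. Mature members of the family share the seed shown in capitals (bases 2 to 8).
miR-291a-3p: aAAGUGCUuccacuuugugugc
miR-294-3p: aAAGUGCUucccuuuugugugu
miR-295-3p: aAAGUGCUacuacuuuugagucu
Sites AGCACTT or GCACTTA, which overlap in the letters GCACTT and were read on the sense strand only, were in the longest 3′ UTR of 7 of the 54 genes (13%): Usp29, Fgf10, Frem2, Cntnap2, Elovl4, Cux2 and Atp2b2. They were in 22.8% of 10396 other protein-coding genes that reached 4 CPM. The 3′ UTRs of the depleted genes were also shorter, with a median length of 762 bases against 1421.

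The limits of the rule cut through a continuous range. Just inside the WT limit were Cfap74 (4.02 CPM), Scn3b (4.05 CPM) and Jph3 (4.09 CPM), and just outside it Fignl2, Cd80 and Cd79b (4.00, 3.99 and 3.98 CPM, the first value rounded up, with 0.966, 0.909 and 0.671 CPM in KO). Just inside the KO limit were Dpep3, Myl4 and Necab2 (0.966, 0.966 and 0.961 CPM), and just outside it Dysf, Pou3f1 and Trim63 (1.01, 1.04 and 1.04 CPM, with 6.19, 5.21 and 4.83 CPM in WT). The KO nascent RNA of those 3 was 0.415, 2.46 and 1.98 CPM, within the range of the depleted genes.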

How the data were processed

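The deposited table held whole-number exon read counts per gene for the 12 libraries, not normalized. As the file header, the labels and the paper's methods give it, the authors removed adapters (cutadapt 1.14), kept reads that STAR 2.5.3a placed uniquely on mm10, and ran featureCounts 1.5.3 by strand on GENCODE M14 basic without rRNA genes. Unique mapping under-counts close copies such as the Xlr family. GENCODE M21 supplied symbols, biotypes and 3′ UTRs and matched 51274 of 51467 gene identifiers. The 92 spike-in rows held at most 1.12e-05% of a library's counts; CPM was scaled over all rows, and spike-ins stayed out of the fit. Coordinates of genes are those of the table (mm10); promoters and microRNAs came from RefSeq (GRCm38.p6).

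Groups and replicate numbers came from sample titles. Genes at 3 CPM or more in 3 or more libraries (14033) were fitted with limma 3.58.1 and voom weights after TMM scaling in edgeR 4.0.16 (R 4.3.3); the model had a mean for each of the 4 groups. The spread of a gene was estimated over all 12 libraries, so nascent p-values also draw on the total libraries that chose the genes. Total and 4sU libraries of the same RNA sample were treated as independent. P-values were adjusted over all tested genes (Benjamini-Hochberg). Calls required adjusted p below 0.05 with a log2 change beyond 1 in either direction. On simulated counts for the nascent comparison (13676 genes), 97% of genes lowered 3-fold were called. The lowered genes were drawn from all genes with a WT mean of at least 4 CPM, with the same spread setting for every gene. The share therefore need not hold for the depleted genes, many of which had few nascent reads. Counting intervals are exact binomial (95%) on reads pooled over a group; they, and the floor of 3 counts pooled over a group, cover counting error only, since reads had no molecular identifiers. Fitted changes of genes with a group at 0 depend on the prior count.

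The rule for named genes took, of the 54, the 12 highest in WT total RNA, the 6 highest in KO 4sU RNA, those with another within 500 kb, those in a fixed list, the 4 highest and 4 lowest by total to 4sU ratio, and the 3 on each side of each limit. All other genes named, the role groups and the gene families were chosen after their values were seen. The 54 genes and all lists were chosen with earlier results of these data known. Alternatives were edgeR's quasi-likelihood test, DESeq2 1.42.0, other scalings, no low-count filter, a replicate block, leaving out each replicate, and other limits of the rule.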

Additional observations from a re-analysis of the deposited data

How the results depend on the processing

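The 52 genes called lower in nascent RNA were 52 with edgeR, DESeq2, library size alone and RLE size factors, and 50 with no filter on low counts, where Cfap74 and Jph3 were no longer called. Genotypes share replicate numbers in the labels, but deviations of same-numbered nascent libraries correlated at -0.0894 to 0.0820, so the numbers were not treated as pairs. With the replicate block, 51 of the 54 were called (Cfap74 was not), with 730 genes lower and 1321 higher in nascent RNA and 1119 lower and 1319 higher in total RNA, against 740, 1333, 1099 and 1309 without it. Leaving out 1 replicate gave 43 to 51 called, where 6 to 8 genes no longer passed the filter whenever a WT replicate was left out.

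With no filter on low counts (30975 genes tested) 1448 genes were lower and 2353 higher in nascent RNA, and 1854 lower and 2148 higher in total RNA. Leaving out 1 replicate gave 623 to 734 lower and 1179 to 1353 higher in nascent RNA, and 987 to 1099 lower and 1183 to 1308 higher in total RNA.

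The set depends on its limits. TMM-scaled CPM gave 60 genes, of which 52 were shared, 34 under 1 CPM in KO nascent RNA and 58 called lower. Limits met in every library gave 27 genes (18 under 1 CPM, 26 called), a WT minimum of 2 CPM gave 182 (115 and 104), a WT minimum of 8 CPM gave 14 (9 and 14), a KO limit of 0.5 CPM gave 18 (14 and 18), and a KO limit of 2 CPM gave 156 (44 and 133). Calls for these sets came from the main fit. Genes of a set that missed its low-count filter were not tested and counted as not called. Leaving out 1 replicate from the means gave 51 to 60 genes with 28 to 33 under 1 CPM. Of the 54, 46 were under 2 CPM and 20 under 0.5 CPM in KO nascent RNA. Genes with another of the set within 500 kb numbered 0 as reported, 36 at a WT minimum of 2 CPM, 35 at a KO limit of 2 CPM, and 0 to 2 without a replicate; 2 lay within 1000 kb.

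For the 28 genes named by rule, 307 of 320 alternative nascent log2 changes stayed on the same side of the test, 13 lost the call (Cfap74, Jph3, Cap2, Garem2 and Myl4), and none changed sign. The order of the largest changes depended on the tool: Prmt8, Rhox5 and Xlr3a changed by -5.88, -4.91 and -4.27 in limma, -5.77, -7.23 and -6.63 in edgeR, and -5.91, -6.37 and -5.77 in DESeq2, and the last 2 genes had no KO nascent read. Depth limits genes with a few nascent reads: 15 of the 54 had no read in at least 1 KO nascent library. The cause of each change was not tested.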
